A study of Tribolium castaneum with 16 samples.

Results

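Open chromatin was compared between whole embryos of the red flour beetle Tribolium castaneum of a later age (48 to 72 h from egg laying) and an earlier one (24 to 48 h), with 2 peak lists for either stage. The peaks of these 4 lists were merged into 1 region wherever they overlapped by at least 1 bp, which gave 24992 regions, against 52384 regions when all 14 peak lists of the series were merged. Of the 24992 regions, 267 were called in both 48 to 72 h lists and in neither 24 to 48 h list (1.07%), and they are named 48 to 72 h regions here. A further 2591 were called in both 24 to 48 h lists and in neither 48 to 72 h list (10.4%), named 24 to 48 h regions, and 8183 were called in all 4 lists (32.7%).

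FAIRE-seq sequences DNA from fixed and sheared chromatin that stays in the aqueous phase of a phenol-chloroform extraction. Nucleosome-poor DNA, such as that of active promoters and enhancers, is enriched there, so a peak marks chromatin that was open in many of the cells sampled. Tribolium is a short-germ insect whose segments are added from a posterior growth zone. Broadly, the younger window follows segment formation and covers the extended and retracting germband, when limb buds and the nervous system form. The older window covers dorsal closure, the differentiation of muscle, nerve and epidermis, and the laying down of larval cuticle before hatching.

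All 4 libraries came from whole embryos of the Georgia I strain that were collected over 24 h, aged at 30 °C, fixed for 30 minutes at 25 °C and sonicated to 500 bp to 2 kb, per the labels. A stage is therefore a window of ages and a mixture of all cell types, in which fewer cells of a type and less open chromatin per cell cannot be told apart. The labels name 16 samples, of which 14 have a peak list. The other 10 lists came from 0 to 24 h Georgia I embryos (2 lists), from the brain of last-instar larvae, titled CNS (2 lists), and from larval lateral epidermis dissected with the elytron disc (T2, 3 lists) or the hindwing disc (T3, 3 lists). Larvae were of the pu11 enhancer-trap strain, CNS was fixed for 20 minutes, and the length of the internal barcode differed between embryo, CNS and epidermis, so that strain, fixation or barcode changed together with tissue. The labelled stages could not be checked against marker genes, because the lists give positions without gene names and no annotation of their build was used here.

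The 48 to 72 h lists held 17288 peaks in replicate 1 and 10769 in replicate 2, and the 24 to 48 h lists held 18034 and 21309. Both 48 to 72 h lists were shorter than both 24 to 48 h lists, and replicate 2 of 48 to 72 h stood apart from the other 3. The means were 14028.5 ± 4609.6 peaks at 48 to 72 h and 19671.5 ± 2315.8 at 24 to 48 h (SD, n = 2 each), a difference of -5643 with an exact two-sided permutation p of 0.333, the smallest that 2 lists against 2 allow (0.389 after Benjamini-Hochberg adjustment over 7 tests). No label says that the 2 samples of a stage came from separate cultures, so a p-value here measures only the spread between samples, which may be technical.

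The read total of a list was unknown, but the background depth, the expected number of reads over a base away from peaks, could be recovered from the deposited fold and p-values. It was 1.92 and 2.53 reads per base at 48 to 72 h, against 1.89 and 2.08 at 24 to 48 h. The deepest of the 4 libraries thus had the fewest peaks. Thinning all 4 to one depth left 17271 and 10520 peaks at 48 to 72 h and 18030 and 21221 at 24 to 48 h. It lowered the reads at the summits of peaks already called and kept those with a -log10 p of at least 3.07. Peaks were not called again, so it cannot show how many would be called at that depth. Median fold enrichment, the authors' ratio of the signal at a peak's summit to the background there, was 5.11 and 4.70 at 48 to 72 h and 5.20 and 5.25 at 24 to 48 h.

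**Figure D1:**
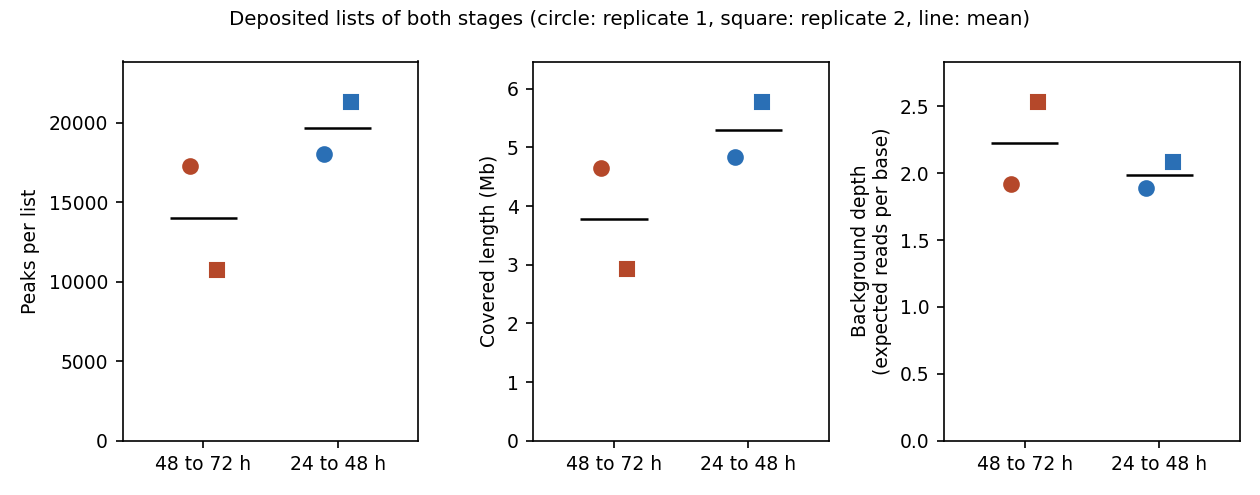
Peaks per list, covered length in Mb and recovered background depth in expected reads per base for each of the 4 lists, with a line at the mean of each stage. Replicate 2 of 48 to 72 h (square) has the fewest peaks, 10769, and the highest background depth, 2.53.

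Peaks covered 4.64 and 2.93 Mb at 48 to 72 h, against 4.83 and 5.77 Mb at 24 to 48 h. The difference of the means was -1.52 Mb (exact two-sided permutation p = 0.333, adjusted p = 0.389), and it moved with the number of peaks, since mean peak width was 269 and 272 bp at 48 to 72 h and 268 and 271 bp at 24 to 48 h. The median width of a peak was 199.5 and 198 bp at 48 to 72 h, against 201 and 204 bp at 24 to 48 h, and both older lists lay below both younger ones (difference -3.75 bp, exact two-sided permutation p = 0.333, adjusted p = 0.389). At one list size, described below, the width difference was -27 bp at the same exact p. One peak was the widest in every list: it filled the first 13020 bp of the unplaced scaffold GG695826, with folds of 6.90 and 5.30 at 48 to 72 h and 7.0 and 6.14 at 24 to 48 h. The highest recovered number of reads at a summit was 250 in every list, although the lists differed in depth. Whether this peak lay at that limit was not tested, so its folds cannot be compared between stages.

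Most 48 to 72 h peaks overlapped a 24 to 48 h peak. Of the 48 to 72 h peaks in replicate 1, 77.9% overlapped a peak of 24 to 48 h replicate 1 and 83.7% one of replicate 2, and for 48 to 72 h replicate 2 these shares were 88.1% and 89.3%. In the other direction, 74.7% and 51.5% of the peaks of 24 to 48 h replicate 1 overlapped a peak of 48 to 72 h replicate 1 and replicate 2, and for 24 to 48 h replicate 2 the shares were 67.5% and 44.4%. The low values all belong to the overlap with the shortest list.

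Measured in bases, the Jaccard index (bases covered in both lists divided by bases covered in either) was 0.526 between the 48 to 72 h replicates and 0.605 between the 24 to 48 h replicates. Between stages it was 0.585 and 0.562 for 48 to 72 h replicate 1 and 0.484 and 0.416 for replicate 2. Replicate 1 of 48 to 72 h therefore had a higher index with each 24 to 48 h list than with its own replicate. Pairs of the same stage exceeded pairs of different stages by 0.0535 on average (exact one-sided permutation p = 0.333, the smallest that 3 pairings allow, adjusted p = 0.389), and without 24 to 48 h replicate 2 the difference was -0.00849.

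The number of peaks enters all of these values, so every list was also cut to its best 10769 peaks by -log10 p, the length of the shortest. The last peak kept had a -log10 p of 8.55 and 3.07 in the 48 to 72 h lists and 8.75 and 10.9 in the 24 to 48 h lists, and the first peak left out of each of the 3 longer lists had the same value at this precision. At equal size the Jaccard index was 0.595 between the 48 to 72 h replicates and 0.609 between the 24 to 48 h replicates, and all 4 pairs of different stages lay lower, from 0.489 to 0.568. The difference was 0.0671 with the same exact one-sided permutation p of 0.333. At one list size, then, each list was closest to its own replicate.

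The stage classes changed in size with list length. At equal size the merge gave 16464 regions, of which 828 were called at 48 to 72 h alone (5.03%), 1164 at 24 to 48 h alone (7.07%) and 5777 in all 4 lists (35.1%). Of the 828, 679 (82.0%) had a peak in at least 1 full 24 to 48 h list that the cut had removed, which leaves 149. Of the 1164, 444 (38.1%) had a peak in the full list of 48 to 72 h replicate 1, which leaves 720. Those 149 and 720 regions stood in their class both in the deposited lists and at equal size.

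Regions split unevenly between replicates were common. In the deposited lists 1725 regions were called in 1 of the 48 to 72 h lists and no 24 to 48 h list, against 5049 in 1 of the 24 to 48 h lists and no 48 to 72 h list. Single-list regions were 1437 for 48 to 72 h replicate 1 and 288 for replicate 2, and 1303 for 24 to 48 h replicate 1 and 3746 for replicate 2. A further 3677 regions were called in every list but 48 to 72 h replicate 2, more than the 2591 of the 24 to 48 h class.

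**Figure D2:**
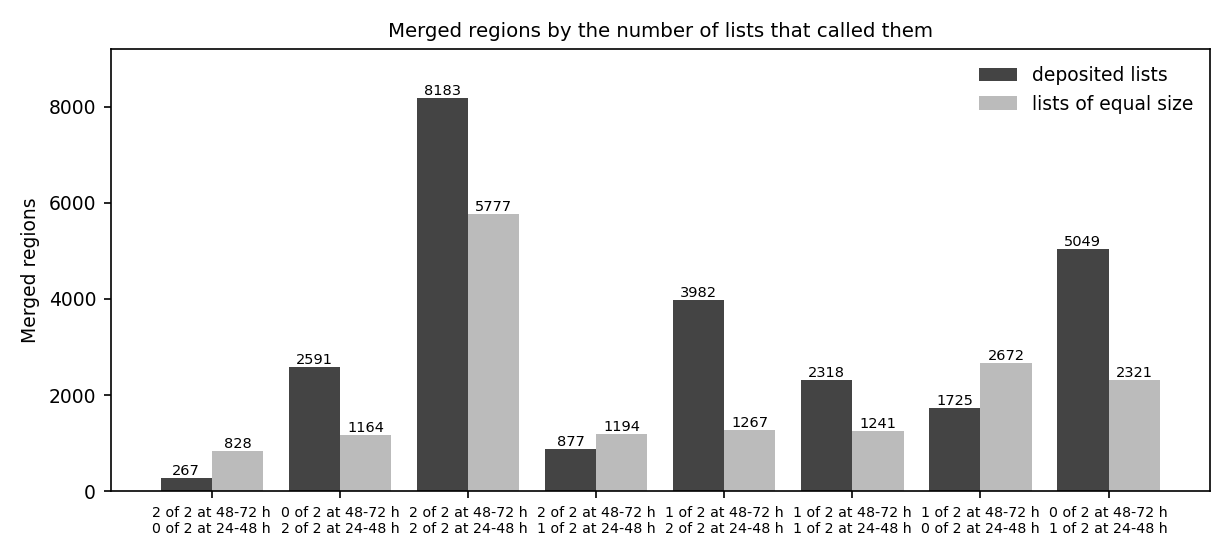
Merged regions (vertical axis, number) by how many lists of each stage called them, in the deposited lists (dark) and with each list cut to 10769 peaks (light). The 48 to 72 h class grows to 828 at equal size, against 267 in the deposited lists, and the 24 to 48 h class shrinks to 1164, against 2591.

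Regions of either stage class were narrow. The median width was 185 bp for 48 to 72 h regions and 191 bp for 24 to 48 h regions, against 330 bp for regions called in all 4 lists and 216 bp for every merged region. At equal size the medians were 225.5 bp for 48 to 72 h regions and 212 bp for 24 to 48 h regions, against 328 bp for those in all 4 lists. The widest 48 to 72 h region spanned 483 bp and the widest 24 to 48 h region 749 bp. Merging itself widens a region that several lists called, so widths were also read from single peaks: peaks of 48 to 72 h regions had medians of 165 and 151 bp and peaks of 24 to 48 h regions 154 and 173 bp. Peaks of the regions called in all 4 lists had medians of 250 and 211 bp in the 48 to 72 h lists and 253 and 279 bp in the 24 to 48 h lists.

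They were also weak within their own lists. Fold enrichment was ranked within each list as a percentile, from 0 for the lowest to 100 for the highest, because folds of libraries that differ in depth and background are not on one scale. Peaks of 48 to 72 h regions had median percentiles of 39.5 in replicate 1 and 28.1 in replicate 2, with median folds of 4.67 and 3.93. Peaks of 24 to 48 h regions had median percentiles of 39.2 and 44.5, with median folds of 4.71 and 5.05. Peaks of regions called in all 4 lists ranked at 71.6 and 56.4 in the 48 to 72 h lists and at 69.9 and 73.3 in the 24 to 48 h lists. Peaks called in 1 list alone ranked lowest, at 28.0 and 21.7 in the 48 to 72 h lists and at 25.2 and 27.9 in the 24 to 48 h lists. These values describe the classes and carry no test, because the class and the rank rest on the same calls.

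**Figure D3:**
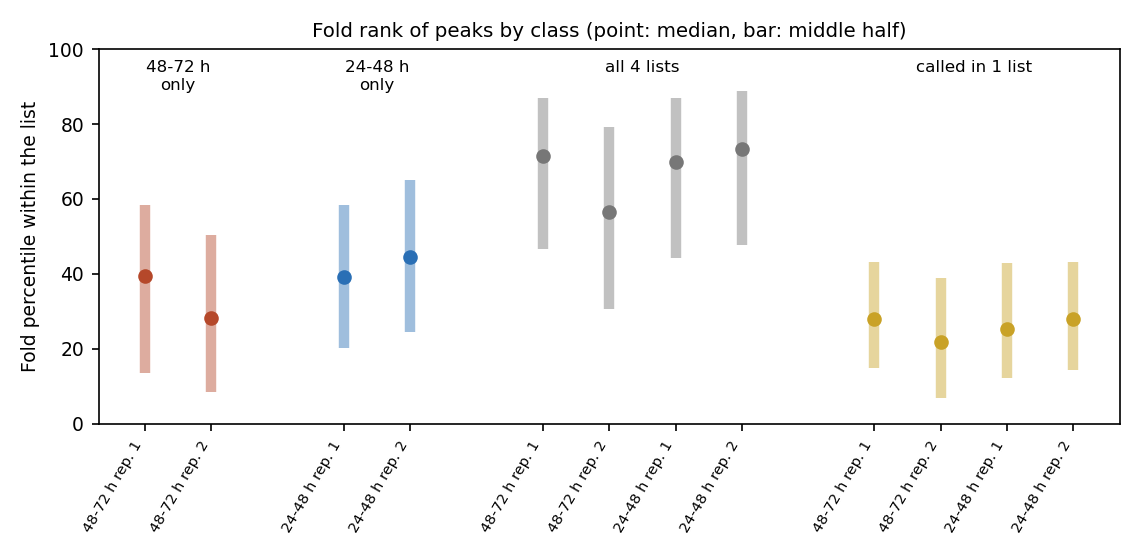
Fold percentile within the list (vertical axis, 0 to 100) of the peaks in each class, by list; the point is the median and the bar runs between the quartiles. Both stage classes have medians between 28.1 and 44.5, and peaks of regions called in all 4 lists have medians between 56.4 and 73.3.

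A small part of the 48 to 72 h class was nevertheless strong. The 10 regions named by rule kept their class at equal size and had the largest value of their lower percentile over both lists. The first lay on the unplaced scaffold DS497874.1 at 50987 to 51275, with folds of 13.0 and 9.57 (percentiles 95.9 and 92.2), and was called in all 10 other lists of the series. The second, ChLG5:16062493-16062663, had folds of 10.2 and 7.80, and the third, ChLG8:12592445-12592657, had folds of 8.95 and 7.63. The remaining 7 had folds between 6.84 and 9.22 in replicate 1 and between 6.04 and 6.57 in replicate 2.

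These 7 were ChLG8:16860558-16860837, ChLG5:7136228-7136412, ChLG5:8989722-8989905, ChLG4:9680773-9680928, ChLG7:897938-898150, ChLG3:29935253-29935444 and ChLG8:12459953-12460187. Their patterns in the other tissues differed. Of the 10 regions, 4 were called in all 10 other lists, as were 17.2% of the 48 to 72 h class and 20.2% of every merged region. ChLG5:7136228-7136412 was called in both 0 to 24 h and both CNS lists and in no epidermis list. ChLG7:897938-898150 was called in no 0 to 24 h list, in both CNS lists and in 4 of 6 epidermis lists, and ChLG4:9680773-9680928 in both 0 to 24 h lists, all 6 epidermis lists and no CNS list.

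The strongest 24 to 48 h regions ranked higher. ChLG7:13091662-13091883 had folds of 17.7 and 20.5 (percentiles 98.6 and 98.7) and no peak in either 48 to 72 h list. ChLG4:10132711-10132994 had folds of 15.5 and 21.8, and ChLG3:2814447-2814768 had folds of 14.9 and 18.1. All 3 were called in both 0 to 24 h and both CNS lists and in no epidermis list. The other 7 were ChLG8:16723360-16723627, ChLG3:188642-188847, ChLG2:13833635-13833890, ChLG4:9428232-9428850, ChLG8:16004942-16005200, ChLG5:11605240-11605482 and ChLG7:3344515-3344739. Their folds lay between 10.6 and 13.1 in replicate 1 and between 11.7 and 16.0 in replicate 2. All 10 were called in both 0 to 24 h lists, 8 of 10 in both CNS lists, and 7 of 10 in no epidermis list, where 88.3%, 77.5% and 39.6% of every merged region were.

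The 5 regions called in all 4 lists with the largest lowest percentile were high in every list by choice. ChLG2:10283922-10284405 had folds of 30.4 and 25.0 at 48 to 72 h and 32.1 and 39.9 at 24 to 48 h. ChLG1:4079731-4081067 had folds of 32.6 and 24.7 at 48 to 72 h and 34.6 and 37.2 at 24 to 48 h. On the unplaced scaffold GG694831, a region over the first 939 bp had folds of 35.9 and 24.1 at 48 to 72 h and 31.9 and 37.3 at 24 to 48 h. It was called in both 0 to 24 h lists and in none of the 8 larval lists. The other 4 of the 5 named regions were called in all 10 other lists, as were 41.7% of the 8183. The remaining pair was ChLG8:111743-112080, with folds of 29.3 and 25.1 at 48 to 72 h and 31.6 and 33.6 at 24 to 48 h, and ChLG5:13491925-13493390, with 35.5 and 28.2 at 48 to 72 h and 31.2 and 38.8 at 24 to 48 h.

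Regions of both stage classes lay on all 10 linkage groups. The 48 to 72 h regions numbered from 9 on ChLG1 to 34 on ChLG9, and the 24 to 48 h regions from 89 on ChLG10 to 339 on ChLG5. ChLG1, known as the X, held the lowest share of 48 to 72 h regions among its merged regions, 0.650%, and the highest share of 24 to 48 h regions, 13.0%, against 1.07% and 10.4% over all regions. At equal size these ChLG1 shares were 4.67% and 9.72%, against 5.03% and 7.07% over all regions, and the lowest share of 48 to 72 h regions on a linkage group was then that of ChLG2, 4.03%. The small number of 48 to 72 h regions on ChLG1 leaves its share imprecise.

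Unplaced scaffolds held 27 of the 48 to 72 h regions (10.1%) and 230 of the 24 to 48 h regions (8.88%), against 15.6% of regions called in all 4 lists and 12.1% of every merged region. Of all peaks, 13.2% and 15.9% at 48 to 72 h and 13.3% and 12.1% at 24 to 48 h lay on unplaced scaffolds, a difference of 1.88 percentage points between stages (exact two-sided permutation p = 0.667, also after adjustment), and the stages overlapped.

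Regions of both classes lay at distances from regions called in all 4 lists close to those of merged regions at large. On linkage groups the median distance to the nearest region called in all 4 lists was 5.68 kb for 48 to 72 h regions and 5.79 kb for 24 to 48 h regions, against 5.39 kb for every merged region. Within 2 kb of such a region lay 23.3% of 48 to 72 h regions and 18.5% of 24 to 48 h regions, against 21.5% of every merged region. The nearest region of the same class lay 129 kb away for 48 to 72 h regions and 12.3 kb away for 24 to 48 h regions, as medians, and this distance shrinks as a class grows.

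In 100 kb windows that held a merged region, 48 to 72 h regions were absent from 1288 of 1494, and 1 window held more than 3. This window, ChLG4:1000001-1100000, held 4 among its 19 merged regions and no region called in all 4 lists. Its members were ChLG4:1069561-1069741, with folds of 4.70 and 2.82, ChLG4:1070243-1070523, with 3.47 and 2.63, ChLG4:1083980-1084193, with 2.00 and 2.21, and ChLG4:1084997-1085198, with 3.80 and 4.61. None was called in a 0 to 24 h list, and 3 of 4 were called in all 6 epidermis lists, the other in 1. Of every merged region, 7.90% were in no 0 to 24 h list and 25.2% in all 6 epidermis lists. The background the peak caller used at their summits was 3.04 to 6.76 times the genome-wide background of the list, and the part of local background in these calls was not tested.

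Of the 24 to 48 h regions, 10 or 11 lay in each of 4 windows and 9 in each of 9 others. ChLG7:18900001-19000000 held 11 among 49 merged regions and its neighbour ChLG7:18800001-18900000 held 10 among 66. ChLG5:11700001-11800000 held 10 of 33, and ChLG1:6500001-6600000 held 10 of 39. ChLG4:2400001-2500000, 1 of the 9 windows with 9, held them among 21 merged regions. It had no region called in all 4 lists, and all 9 of its 24 to 48 h regions were called in both 0 to 24 h and both CNS lists, as were 97.9% (0 to 24 h) and 82.4% (CNS) of the whole class.

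The stage classes were then looked up in the 10 lists that had no part in defining them. Nearly all 24 to 48 h regions were also called in the 0 to 24 h embryo, and the 48 to 72 h regions less often. The 0 to 24 h lists held 56.2% and 58.4% of 48 to 72 h regions, 98.4% and 99.1% of 24 to 48 h regions, and 90.1% and 90.3% of every merged region. The CNS lists held 67.0% and 64.8% of 48 to 72 h regions, 84.9% and 89.7% of 24 to 48 h regions, and 79.7% and 84.1% of every merged region. In larval epidermis the order was the other way round. The T2 lists held 43.1%, 65.9% and 64.8% of 48 to 72 h regions, 12.4%, 35.9% and 38.3% of 24 to 48 h regions, and 26.8%, 47.1% and 47.8% of every merged region. The T3 lists held 64.8%, 65.2% and 71.2% of 48 to 72 h regions, 41.7%, 36.9% and 38.1% of 24 to 48 h regions, and 49.9%, 48% and 48.8% of every merged region.

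The strength of the shared peaks differed in the same lists. Where 48 to 72 h regions were called at 0 to 24 h, their median fold percentile in those lists was 40.0 and 39.0, against 63.9 and 65.7 for every merged region called there. In CNS it was 60.8 and 64.8, against 63.6 and 64.1, in the T2 lists 45.2, 53.9 and 59.3, against 58.1, 61.9 and 61.4, and in the T3 lists 61.9, 55.4 and 60.6, against 60.5, 62.7 and 65.0. The 24 to 48 h regions ranked at 66.5 and 72.0 in the 0 to 24 h lists, above those values for every merged region, and at 55.2 and 55.3 in CNS, below them. In the T2 lists the 24 to 48 h regions ranked at 49.3, 60.0 and 54.4. In the T3 lists they ranked at 53.7, 57.9 and 58.3, and in each epidermis list they lay below merged regions at large. Thus 48 to 72 h regions called at 0 to 24 h or in T2 ranked below merged regions at large in every list. In CNS and T3 both directions occurred for 48 to 72 h regions, with CNS replicate 1 and T3 replicates 2 and 3 also below.

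For each list, the share of 48 to 72 h regions called minus the share of 24 to 48 h regions called gives one value. The division of the lists into epidermis and the rest was made with earlier results known. The value was 28.6 ± 3.52 percentage points over the epidermis lists (SD, n = 6, range 23.1 to 33.1) and -31.4 ± 11.9 over the 0 to 24 h and CNS lists (SD, n = 4, range -42.2 to -17.9). It was above 0 in each of the 6 epidermis lists and below 0 in each of the 4 others. The difference between these means was 60.0 points (exact two-sided permutation p = 0.00476, adjusted p = 0.0167 over 7 tests). This p is the smallest that 210 ways of choosing 6 lists among 10 can give. The other ways all mix replicates of a tissue, and resemblance among replicates is enough to lower it.

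The size of the difference depended on list length and on local background, and it was above 0 in all 15 alternatives run. At equal list sizes it was 14.5 points, with -13.3 ± 6.22 in the 0 to 24 h and CNS lists (SD, n = 4) but 1.21 ± 2.88 in the epidermis lists (SD, n = 6, range -1.12 to 6.74), where both signs occurred. At that size the epidermis lists held 26.9% to 53.4% of 48 to 72 h regions and 36.1% to 60.4% of every merged region. The first share was the smaller in each epidermis list. Over the 149 and 720 regions that kept their class the difference was 46.3 points, with 22.9 ± 3.23 in epidermis (SD, n = 6). With the 10 other lists each cut to the 9725 peaks of the shortest it was 45.8 points, and the values of the 0 to 24 h and CNS lists then ran from -40.4 to 6.56, so that both signs occurred there. Single lists decided on which side the difference lay. Without 48 to 72 h replicate 2 it was 24.8 points, with -1.23 ± 3.82 in epidermis (SD, n = 6, range -7.56 to 3.21) and -26.0 ± 3.87 in the others (SD, n = 4), so the excess in epidermis was no longer seen. Without 24 to 48 h replicate 2 it was 22.4 points, with 20.0 ± 1.78 in epidermis (SD, n = 6) and -2.38 ± 9.93 in the others (SD, n = 4), where both CNS lists were above 0, at 9.05 and 2.81. The exact permutation p was 0.00476 in each of these settings.

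**Figure D4:**
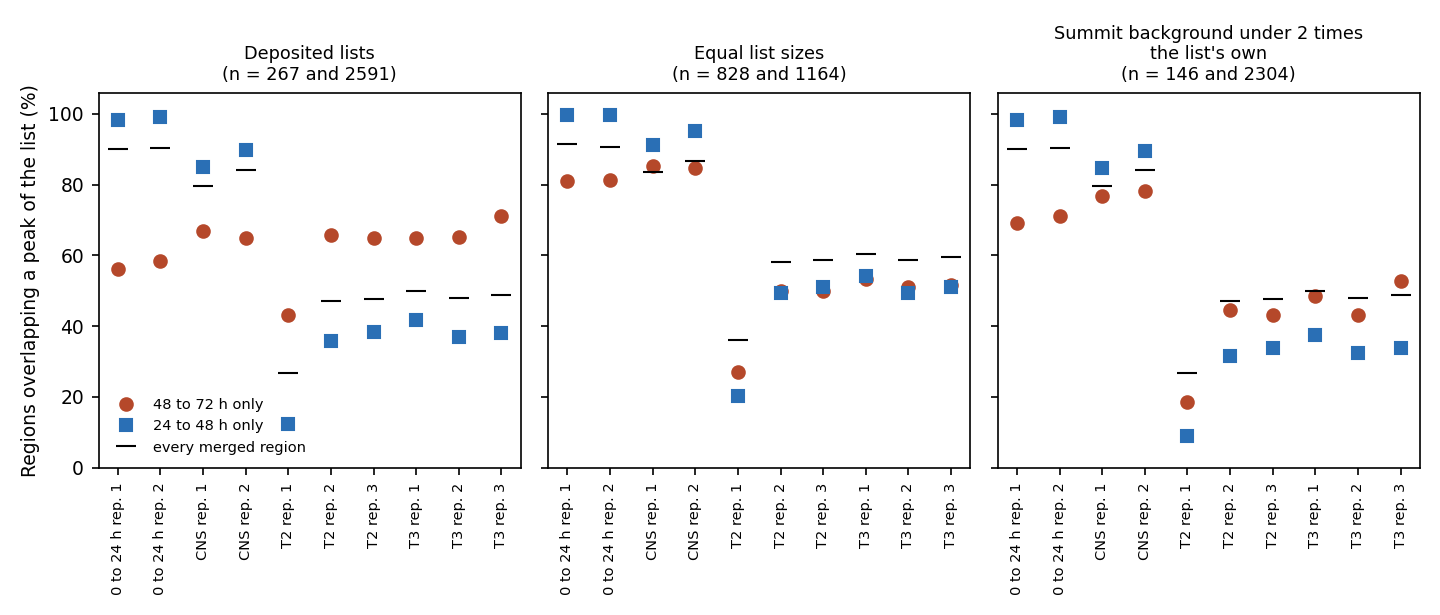
Percent of 48 to 72 h regions (circles), 24 to 48 h regions (squares) and every merged region (lines) that overlap a peak in each of the 10 other lists, for the deposited lists, for equal list sizes and for regions with low local background. With the deposited lists the circles lie 23.1 to 33.1 points above the squares in the 6 epidermis lists and 17.9 to 42.2 points below them in the 4 others, and at equal sizes they differ by 6.74 points or less in epidermis.

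The combination of lists set part of the 48 to 72 h class apart. Of its 267 regions, 104 (39.0%) were called in no 0 to 24 h list, against 12 of 2591 24 to 48 h regions (0.463%) and 7.90% of every merged region. A peak in at least 1 epidermis list and none at 0 to 24 h or in CNS was found for 71 of the 48 to 72 h regions (26.6%), against 4 of the 24 to 48 h regions (0.154%) and 5.71% of every merged region. All 6 epidermis lists held 105 of the 48 to 72 h regions (39.3%), against 309 of the 24 to 48 h regions (11.9%) and 25.2% of every merged region. The reverse combination, called at 0 to 24 h or in CNS and in no epidermis list, held 51 of the 48 to 72 h regions (19.1%), against 1236 of the 24 to 48 h regions (47.7%) and 38.8% of every merged region. Regions found in no other list of the series were 8 of 267 in the 48 to 72 h class (3.00%). In the 24 to 48 h class they were 1 of 2591 (0.0386%), against 0.788% of every merged region.

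A stricter combination, all 6 epidermis lists and no 0 to 24 h or CNS list, held 36 of the 48 to 72 h regions (13.5%) and 0 of the 2591 24 to 48 h regions, which allows a share of up to 0.116%, against 1.39% of every merged region. These 36 lay on 19 sequences, 10 of them on unplaced scaffolds. Within the 48 to 72 h lists they ranked near the bottom, with median fold percentiles of 3.86 and 3.72, whereas in the epidermis lists their median percentile was 41.8 and ranged from 13.6 to 90.2. The strongest by its lower percentile at 48 to 72 h was ChLG4:8229747-8229915, with folds of 4.56 and 6.33.

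Local background differed between these classes of regions. At the summits of 48 to 72 h regions the peak caller's background had a median of 1.76 times the list's own genome-wide background in both 48 to 72 h lists, and at 24 to 48 h regions it was 1.18 times in both 24 to 48 h lists. It was between 1.66 and 1.74 times for regions called in all 4 lists. It reached 2 times in at least 1 calling list for 121 of the 48 to 72 h regions (45.3%), 287 of the 24 to 48 h regions (11.1%), 46.4% of regions called in all 4 lists and 25.4% of every merged region. Of the 36 regions above, 32 reached it, with a median of 5.24 times over all 36. The 4 others were ChLG4:8229747-8229915, ChLG4:2262523-2262678, ChLG2:12282176-12282390 and bases 2402 to 2696 of the unplaced scaffold GG694308. Among the strong 48 to 72 h regions named by rule, that on DS497874.1 had 3.13 times and ChLG8:12592445-12592657 had 2.35 times. ChLG8:16860558-16860837 had 2.25, ChLG3:29935253-29935444 had 2.15 and ChLG7:897938-898150 had 2.06 times. The rest of those named lay between 1.00 and 1.57 times, and the named 24 to 48 h regions between 1.00 and 1.66 times.

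When only regions under 2 times were kept, 146 of the 48 to 72 h class and 2304 of the 24 to 48 h class remained. The difference between epidermis and the 0 to 24 h and CNS lists was then 31.2 points (exact two-sided permutation p = 0.00476), with 12.1 ± 3.60 in epidermis (SD, n = 6, range 9.38 to 18.9) and -19.1 ± 11.0 in the others (SD, n = 4). Of these 146 regions, 38 (26.0%) were called in no 0 to 24 h list. That share was 39.0% over the whole class and 7.90% over every merged region. The contrast was smaller in regions of low local background, and each of the 10 lists kept the sign it had over all regions. That sign compares the stage classes with each other only. The T2 lists held 18.5%, 44.5% and 43.2% of these 146 regions, against 26.8%, 47.1% and 47.8% of every merged region. The T3 lists held 48.6%, 43.2% and 52.7%, against 49.9%, 48.0% and 48.8%, so only T3 replicate 3 held a larger share. The shares of every merged region were taken without the limit on background.

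In the regions called in all 4 lists, the same 8183 regions were ranked by fold in each list, although the shortest list limits which regions these are. At equal list sizes 5777 regions were ranked, and 1605 ranked higher and 1382 lower at 48 to 72 h, by the criterion that follows. Both 48 to 72 h ranks lay above both 24 to 48 h ranks in 2099 regions (25.7%) and below both in 1899 (23.2%). The shift, the mean percentile at 48 to 72 h minus that at 24 to 48 h, had a median of 17.0 in the first set and -21.3 in the second, and it was under 10 in size for 49.1% of all 8183. Single lists of the same stage differed by a median of 8.86 percentiles at 48 to 72 h and 9.74 at 24 to 48 h.

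**Figure D5:**
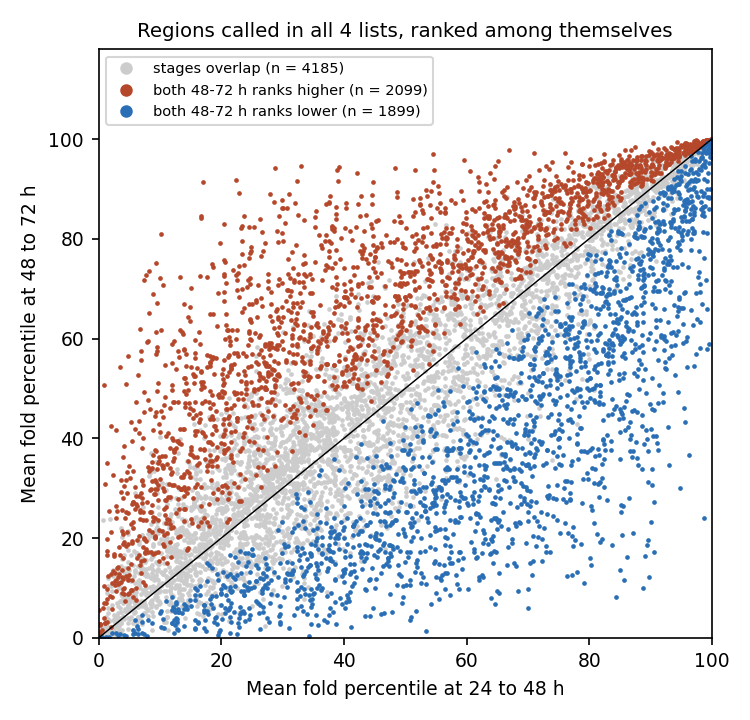
Mean fold percentile at 48 to 72 h (vertical axis) against 24 to 48 h (horizontal axis) for the 8183 regions called in all 4 lists, ranked among themselves. Red points are the 2099 regions with both 48 to 72 h ranks above both 24 to 48 h ranks, blue points the 1899 with both below, grey points the rest, and the line marks equal rank.

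In the regions with the largest shifts the ranks of the stages lay far apart. ChLG10:11335842-11336244 ranked at 94.4 and 88.5 at 48 to 72 h, against 17.1 and 16.8 at 24 to 48 h, with folds of 14.6 and 9.24 at 48 to 72 h against 4.63 and 4.90 at 24 to 48 h. It was called in both 0 to 24 h and both CNS lists and in no epidermis list. The next 4 were ChLG4:3916771-3917167, ChLG8:10523164-10523669, ChLG5:8148903-8149119 and bases 2296 to 2972 of scaffold GG694162, with shifts between 67.5 and 70.8. These 5 and the next 5 were chosen as the most extreme of 8183, so their size carries no test.

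In the other direction ChLG9:7276083-7276488 ranked at 4.77 and 15.0 at 48 to 72 h, against 87.8 and 90.0 at 24 to 48 h, with folds of 3.76 and 3.68 at 48 to 72 h against 12.1 and 14.9 at 24 to 48 h. ChLG3:31227837-31228393 had folds of 4.45 and 4.48 at 48 to 72 h, against 22.3 and 22.9 at 24 to 48 h, and so was among the top peaks of both younger lists. The 3 others were ChLG7:13603162-13603523, ChLG3:7025345-7025539 and bases 872057 to 872565 of scaffold DS497665.1. All 5 were called in both 0 to 24 h and both CNS lists, as were 94.2% (0 to 24 h) and 85.8% (CNS) of the 8183, and their shifts lay between -79.0 and -74.1.

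The shifted regions were looked up in the other lists as well. Regions ranked higher at 48 to 72 h were called in 59.2% to 78.2% over the 6 epidermis lists and those ranked lower in 45.2% to 74.2%. The first share was larger in each of the 6, and of all 8183 regions 53.0% to 74.6% were called there. In the 0 to 24 h and CNS lists, 87.9% to 95.3% of the regions ranked higher were called and 97.2% to 99.8% of those ranked lower. The first share was smaller in each of the 4. Of all 8183 regions, the 0 to 24 h lists held 96.3% and 94.5% and the CNS lists 87.0% and 90.3%. The regions ranked higher lay near these shares, at 95.3% and 93.7% and at 87.9% and 89.0%, and those ranked lower lay above them. A test of this contrast was added after the data were seen. Every other split of the lists mixes replicates of a tissue, and resemblance among replicates is enough to lower its p. The share of regions ranked higher minus that of regions ranked lower was 7.55 ± 3.42 points in epidermis (SD, n = 6) and -7.32 ± 2.40 in the others (SD, n = 4). These means were 14.9 points apart (exact two-sided permutation p = 0.00476, the smallest that 210 splits can give, adjusted p = 0.0167). Without 24 to 48 h replicate 2 this value was 0.334 points (exact permutation p = 0.814), so it rested on that list. At equal list sizes it was 18.6 points.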

How the data were processed

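FAIRE-seq peak lists of 4 embryo samples, and of the 10 other samples with a list, were grouped by the sample titles. Per the labels, each list belonged to 1 sample, and the submitters' processing notes name Trimmomatic 0.32, Bowtie2 2.2.3, SAMtools 0.1.12a, deepTools 2.5.2 and MACS2 2.1.1.20160309 without their roles. The genome build and the control library are not given in the sources used here. The deposited lists give for each peak its coordinates (printed from 1), a fold (a ratio to background at the summit), and the −log10 values of its p-value and q-value, all as the authors' peak caller made them. The lowest −log10 q of the 4 lists lay between 1.30 and 1.34, as a q-value threshold of 0.05 gives. The deposited score, the whole part of 10 times −log10 q, was not used. The deposited coordinates and folds belong to a peak in its own list, so they were used to describe, rank and filter within lists.

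Members, lists and tests were chosen with earlier results of these data known. Regions were merged at an overlap of 1 bp or more, and a list called a region if any of its peaks overlapped it. Fold percentiles were taken within lists. A region named had to be, in its stage class, among the 10 that kept their class at equal list size with the largest value of their lower percentile. The 5 regions called in all 4 lists with the largest lowest percentile and the 5 with the largest rank shift each way were also named. Tests were exact permutations of lists, adjusted over 7 tests with the Benjamini-Hochberg method, with a threshold of p below 0.05. Pileup and background at a summit were solved from fold and p-value as a Poisson tail, giving whole pileups within 0.02, up to 250 in every list. The smallest background in a list was its genome-wide depth, which assumes one fragment extension in all lists. Intervals and floors cover counting error only, and a count of 0 was given the limit that 3 counts allow.

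Alternatives were equal list sizes, −log10 q of at least 5, the best 50%, cover of at least 50% of a region, a merging distance of 100 bp, windows of 200 bp, linkage groups only, thinning, a replicate block and leaving out each list. Chosen after seeing the data were classes that hold against full lists, other lists cut to 9725 peaks, summit background under 2 times the list's own, and all settings of the shifted regions. Same-numbered replicates of both stages did not deviate together (correlation 0.00653 over the regions called in all 4 lists), and no label pairs them. Position relative to genes and the sequences of regions were not analysed here, because no genome or annotation of the files' build was used. The functions were tested on simulated data. Python 3.11.15, numpy 2.4.6, pandas 2.3.3 and scipy 1.17.1 were used.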

Additional observations from a re-analysis of the deposited data

Results flagged for a closer look

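One result was marked because its sign differed between groups of lists. The share of 48 to 72 h regions called minus the share of 24 to 48 h regions called was above 0 in 6 of 6 larval epidermis lists and below 0 in 4 of 4 lists of 0 to 24 h embryos and CNS, and the group means were 60.0 percentage points apart (exact two-sided permutation p = 0.00476, adjusted p = 0.0167). That p is the smallest that 210 splits can give, and the division of the lists was made with earlier results known. The other splits all mix replicates of a tissue, and resemblance among replicates is enough to lower it. Without 48 to 72 h replicate 2 the epidermis mean was -1.23 with 4 of 6 lists below 0, at the same p. Without 24 to 48 h replicate 2 both CNS lists were above 0. At equal list sizes 2 of 6 epidermis lists were below 0. The difference was 14.5 at equal list sizes and 31.2 in regions of low local background. Strain differed between embryo and larva, and barcode length between embryo, CNS and epidermis. Their part in the result was not tested.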

How the results depend on the processing

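With 2 lists a stage, tests between stages could not go below an exact p of 0.333, so their staying on one side of 0.05 says nothing about stability. Depth is known only through the recovered background. Thinning the peaks already called to one depth gave 253 regions of the 48 to 72 h class, 2600 of the 24 to 48 h class and 8050 in all 4 lists. At equal list sizes the difference in number of peaks was 0 by construction, the classes held 828 and 1164 regions, and covered length differed by -0.370 Mb. With the best 50% of each list the 24 to 48 h class held 1623 regions and 4255 were called in all 4. Classes that hold against the full lists of the other stage had 149 regions at 48 to 72 h and 720 at 24 to 48 h. Summit background under 2 times left 146 of the 48 to 72 h class and 4389 in all 4 lists.

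Leaving out 1 list in turn gave 571 to 1716 regions in the 48 to 72 h class, 2894 to 6450 in the 24 to 48 h class and 8513 to 11879 in all the remaining lists, where a class needs 1 list fewer. Regions ranked higher at 48 to 72 h then numbered 3201 to 4801 and lower 3002 to 4056. They were ranked among the 8513 to 11879 regions called in all the remaining lists. The rank criterion also needs 1 list fewer, so it is looser and these counts cannot be compared with those from all the lists. The difference in number of peaks was -8902.5 to -2383.5, that in covered length -2.38 to -0.657 Mb, in median width -5.25 to -2.25 bp and in unplaced share 0.557 to 3.20 points. The Jaccard difference was -0.00849 to 0.154, reversed without 24 to 48 h replicate 2; the cause was not tested. The epidermis contrast was 22.4 to 86.1 points for the stage classes, and 0.334 to 22.7 points for the shifted regions, no longer past 0.05 without 24 to 48 h replicate 2.

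The labels do not pair same-numbered replicates. With the replicate number as a block, the difference in number of peaks stayed -5643 with an exact permutation p of 0.5, the smallest 2 pairs allow, and the Jaccard difference was 0.0650. Of the 25 regions named by class, 21 kept it in all 12 settings tried and 4 in 11 of them. The way they were chosen fixed part of this count. Those of the stage classes had to keep their class at equal list sizes, and leaving out a list cannot break a stage class. All were also chosen for high fold percentiles, so the count says little about stability.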
